A study of Gasterosteus aculeatus with 60 samples.

Results

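The genes described here are the 100 genes of 16444 whose expression 120 min after a territorial challenge ranked highest for being higher in challenged than in control males in both diencephalon and telencephalon. The files held counts for 17536 genes, and 16444 of them had a mean of at least 1 cpm in each region, where cpm is the count scaled to the same library total in every library. For these, a t statistic with unequal variances of log2(cpm + 1), challenged minus control, was taken at 120 min in each region, genes were ranked by the smaller of their 2 t values, and the 100 highest were taken. The values at 120 min therefore chose the genes and are given below as a description, without a test. Tests compared only fish sampled at 30 and 60 min, which the ranking by t did not use. These fish did enter the filter on mean cpm. The edgeR fits of treatment also held the 120 min libraries, which thus entered their error estimate. The 120 min comparisons were also among those over which p was adjusted.

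RNA-seq of polyadenylated RNA was made from both regions of the same 30 male threespined sticklebacks (Gasterosteus aculeatus), caught in the freshwater population of Putah Creek and housed singly, so that 60 libraries in 12 groups of 5 were available. Challenged males were shown a smaller, unrelated male in a flask for 5 min and control males an empty flask, and both were sampled 30, 60 or 120 min later. All fish came from a single population, and the labels give no age. The libraries held 17705327 to 55299804 counts, and their median was 30159568. At 120 min the median total was lower in challenged than in control diencephalon (21751353 against 29344952) and higher in telencephalon (31410578 against 23168726).

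Diencephalon and telencephalon hold many of the cell groups that vertebrates use to evaluate social partners and opponents, and transcription in them changes within minutes to hours of an encounter. A bulk tissue level cannot tell a change in RNA per cell from a change in the number of cells of a type. Of 7 telencephalon marker genes, 6 were higher in telencephalon (emx2 was not), and of 9 diencephalon markers, 8 were higher in diencephalon (nkx2.1 was not). The summed diencephalon markers, which include avp and oxt, were at 75.2 cpm in the diencephalon of challenged fish 9 at 120 min against a median of 549 over the 30 libraries, and at 763 in its telencephalon against a median of 31.6. The same fish had the highest summed microglia and macrophage markers of the 120 min fish, 2790 cpm in diencephalon and 3007 in telencephalon, where the medians were 378 and 448. Fish 19 had photoreceptor genes at 1296 cpm in diencephalon (median 11.4), and fish 32, a control, had pituitary hormone genes at 1052 cpm there (median 5.04). In telencephalon, the diencephalon markers were also high in challenged fish 38 (1203 cpm) and control fish 12 (1003 cpm) of 30 min, and the diencephalon of fish 12 held pituitary genes at 6579 cpm. When 1 fish of 120 min was left out and the ranking repeated, 46 of the 100 genes were chosen again without fish 9, 61 without fish 19 and 70 without fish 32. Without the other challenged fish 68 (fish 1), 48 (fish 13) and 56 (fish 29) were chosen again, and without the other control fish 60 (fish 2), 57 (fish 10), 59 (fish 20) and 62 (fish 25).

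Most of the 100 genes differed little at 120 min, and a few differed several-fold. Differences of mean log2(cpm + 1) had a median of 0.30 in diencephalon (0.06 to 2.37) and 0.31 in telencephalon (0.06 to 2.74). A difference above 1 was found for 8 genes in diencephalon and 6 in telencephalon, while 49 genes lay at or below 0.30 in each region. The smaller t ran from 5.67 for MAMDC4 to 2.15 for ENSGACG00000009049, the last gene chosen. ENSGACG00000017573, the first gene outside, had t values of 4.30 in diencephalon and 2.15 in telencephalon, and its smaller t differed from that of the last member only in the third decimal. In the opposite direction, 119 genes had both t values at or below minus 2.15. Of the 100 genes, 38 had a gene name in the study's supplement, which names only a selection of genes. The other 62 are given by their Ensembl identifier, and whether Ensembl names them was not looked up.

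The 5 challenged fish lay above all 5 control fish at 120 min for 14 of the 100 genes in diencephalon, where the same held for 0.353% of all 16444 genes. In telencephalon this was so for 16 genes, against 0.255% of all genes. In both regions it was so for 4 genes, with MAMDC4, coq4 and thyn1 among them, and these were the only such genes of all (0.0243%). The choice by t in the same fish fixes these counts in part, so nothing is read from them.

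MAMDC4, a membrane glycoprotein with MAM domains known from apical endosomes of rat intestine, ranked highest. In diencephalon at 120 min its level was 7.52, 16.1, 27.5, 29.8 and 30.4 cpm in the challenged fish. In the control fish it was 2.17, 2.42, 2.76, 2.82 and 6.11 cpm. No control fish reached the lowest challenged fish, and the difference of mean log2(cpm + 1) was 2.37. Telencephalon of the same fish gave 9.58, 20.2, 38.1, 40.4 and 43.0 cpm with the challenge and 1.76, 2.26, 2.66, 3.41 and 7.29 cpm without, a difference of 2.74. The gene lies on chromosome XIV of the Ensembl release 75 annotation, from 11278595 to 11287976 on the minus strand.

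At the earlier times both groups of MAMDC4 lay mostly above the 120 min controls. At 30 min the diencephalon held 12.6, 16.0, 16.1, 18.4 and 31.8 cpm in challenged fish and 7.80, 17.0, 17.2, 18.0 and 19.8 cpm in control fish, with wide overlap. At 60 min it held 2.91, 4.83, 16.9, 18.5 and 19.0 cpm in challenged fish and 2.38, 16.7, 16.9, 17.5 and 27.3 cpm in control fish. Levels under 10 cpm occurred in 10 of the 30 fish, and these were the same 10 fish in both regions: all 5 controls of 120 min, 1 challenged fish of 120 min, 2 challenged and 1 control fish of 60 min and 1 control fish of 30 min. Neither time gave a p under 0.05 in two-sided exact permutation tests, which can reach no p below 0.00794 with 5 against 5 fish (diencephalon p = 0.516 at 30 min and 0.754 at 60 min, telencephalon p = 0.484 and 0.397). Of 104 such tests, on 26 members, 3 gave a p under 0.05, and their p are given unadjusted beside the edgeR p adjusted over all genes. The edgeR estimate for MAMDC4 in diencephalon was 0.24 ± 0.49 (SE) at 30 min and -0.39 ± 0.49 at 60 min on the log2 scale.

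**Figure D1:**
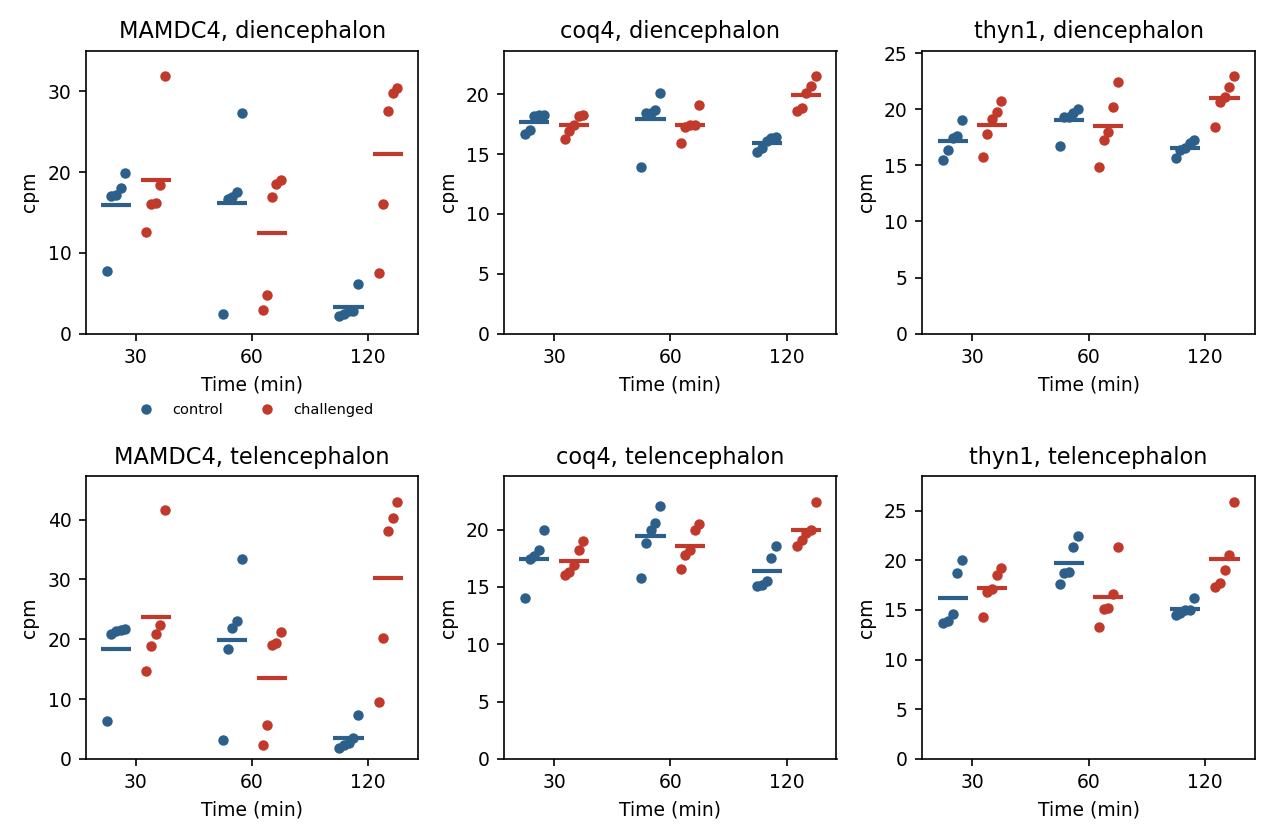
Level in cpm (linear axis from 0) of MAMDC4, coq4 and thyn1 in each fish, by time in min, with diencephalon above and telencephalon below. Points are single fish (red challenged, blue control, 5 each) and bars are group means; challenged and control fish separate at 120 min and overlap at 30 and 60 min.

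coq4 and thyn1, also with separate groups in both regions, differed far less. coq4 encodes a protein needed for coenzyme Q synthesis in mitochondria. It stood at 18.6, 18.9, 20.1, 20.7 and 21.5 cpm in challenged diencephalon and at 15.2, 15.5, 16.1, 16.3 and 16.4 cpm in control diencephalon at 120 min. Those groups were narrow and did not overlap, and in telencephalon the means were 19.9 ± 1.49 and 16.4 ± 1.56 cpm (SD, n = 5 each). At 30 min the diencephalon means of coq4 were 17.4 ± 0.847 with and 17.7 ± 0.766 cpm without the challenge (SD, n = 5 each; exact permutation p = 0.563), and at 60 min 17.4 ± 1.14 and 17.9 ± 2.32 cpm (p = 0.794).

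thyn1 had 21.1 ± 1.69 against 16.6 ± 0.634 cpm in diencephalon and 20.1 ± 3.47 against 15.1 ± 0.653 cpm in telencephalon at 120 min (SD, n = 5 each). Its control fish spanned only 15.6 to 17.3 cpm in diencephalon, below the lowest challenged fish at 18.5 cpm. At 60 min in telencephalon the order was turned, with a mean of 16.3 ± 3.06 cpm in challenged and 19.8 ± 2.00 cpm in control fish (exact permutation p = 0.0635; edgeR log2 difference -0.27 ± 0.12, adjusted p = 0.726).

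Among genes of ribosome assembly and translation, ppan, which acts in assembly of the large ribosomal subunit, ranked second, with 42.9, 45.1, 45.6, 46.9 and 47.8 cpm in challenged and 33.7, 38.0, 39.2, 40.8 and 41.6 cpm in control diencephalon at 120 min. Challenged fish were all above control fish there, and in telencephalon the lowest challenged fish (36.9 cpm) fell among controls of 34.6 to 38.1 cpm. qars, the glutaminyl-tRNA synthetase, had 45.0 ± 6.10 against 35.2 ± 4.28 cpm in diencephalon, and srrt, which takes part in processing of capped transcripts, had 161 ± 13.4 against 146 ± 6 cpm (SD, n = 5 each). Of 10 genes of ribosome assembly, translation and nucleotide synthesis listed for this purpose, 4 were members, these 3 included, in a list drawn up with earlier results of these data known. At 30 and 60 min none of these 3 passed the test in either region, and their exact permutation p ranged upward from 0.175 (qars, telencephalon, 60 min). eef1db (1 of 2), named as a subunit of elongation factor 1, was far lower and differed by 1.02 in diencephalon and 1.18 in telencephalon on the log2(cpm + 1) scale at 120 min. A second copy exists by its name, so the split of reads between them is uncertain.

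Among members with a name, 3 were in the lists of immune genes. tap1, a subunit of the transporter that supplies peptides to MHC class I, held 42.9, 46.0, 47.6, 52.0 and 68.1 cpm in challenged and 34.5, 35.7, 37.2, 38.3 and 45.9 cpm in control diencephalon at 120 min. Its highest values over all 60 libraries were those of the 2 fish with the highest microglia and macrophage markers, control fish 8 of 60 min (86.7 cpm in diencephalon, where those markers summed to 4366 cpm) and challenged fish 9 of 120 min (68.1 and 67.6 cpm). The part of such cells in the difference at 120 min was not tested. None of the 24 microglia and macrophage markers was among the 100 genes. Of the 24, 23 had a higher mean log2(cpm + 1) in challenged fish of 120 min in diencephalon, where 47.4% of all genes did. In telencephalon 23 did as well, where 47.3% of all genes did. The markers were measured in the same fish and are not separate observations. Their summed level at 120 min spanned 362 to 2790 cpm in challenged and 351 to 1060 cpm in control diencephalon, and 400 to 3007 and 431 to 981 cpm in telencephalon. The medians were 427 cpm in challenged and 370 cpm in control diencephalon, and 444 and 452 cpm in telencephalon, where the highest challenged value was that of fish 9.

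The other immune members were a pair of neighbouring genes both named socs7, a suppressor of cytokine signalling. ENSGACG00000014777 held 43.0, 44.9, 45.3, 47.4 and 49.1 cpm in challenged and 12.7, 22.3, 29.7, 30.8 and 46.5 cpm in control diencephalon at 120 min. ENSGACG00000014776 held 23.1, 24.4, 25.8, 26.3 and 26.9 cpm in challenged and 6.99, 11.3, 14.7, 18.1 and 27.1 cpm in control diencephalon. In both, challenged fish were tightly grouped and control fish spread more widely, with 4 of 5 below all challenged fish. The highest control lay within the challenged range for the first gene and just above it for the second. The genes follow each other on chromosome XI (15882825 to 15884607 and 15885037 to 15887971, plus strand) with a gap of 430 bases, and over the 20 fish of 30 and 60 min their deviations from the group means went together with r = 0.975 in diencephalon and 0.953 in telencephalon. Whether they are parts of a single gene was not tested, and their values are not counted as separate support for each other.

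Among genes of signalling, scg2a, a granin and precursor of the neuropeptide secretoneurin, held 132, 135, 139, 145 and 147 cpm in challenged and 102, 104, 111, 118 and 120 cpm in control telencephalon at 120 min. The groups did not overlap there, and they overlapped slightly in diencephalon. At 30 min the order was the reverse: diencephalon held 92.5, 94.0, 103, 118 and 125 cpm in challenged and 118, 121, 135, 136 and 142 cpm in control fish. No challenged fish of 30 min was above the control median in either region (exact permutation p = 0.0317 in diencephalon and 0.0714 in telencephalon). The edgeR difference was -0.30 ± 0.12 and -0.34 ± 0.15 on the log2 scale, and neither passed after adjustment over all genes (adjusted p = 0.665 and 0.700). ppp1caa, a catalytic subunit of protein phosphatase 1, was higher in challenged fish at 120 min by 0.28 and 0.23 on the log2(cpm + 1) scale, and at 60 min its telencephalon level in all 5 challenged fish was above the control median (exact permutation p = 0.0476; edgeR 0.23 ± 0.09, adjusted p = 0.665). mkl2b, a coactivator of serum response factor, differed by 0.55 and 0.58, and otud7b, a deubiquitinase, by 0.47 and 0.61 at 120 min.

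Other named members included genes of metabolism and of the cell division apparatus. alad, the second enzyme of heme synthesis, held 23.4, 23.5, 26.7, 26.8 and 32.0 cpm in challenged and 15.0, 16.5, 19.5, 20.7 and 22.1 cpm in control diencephalon at 120 min, without overlap. In telencephalon at 60 min it stood the other way, at 22.5, 22.6, 23.0, 26.7 and 30.3 cpm in challenged and 27.8, 28.3, 29.4, 33.0 and 34.9 cpm in control fish (exact permutation p = 0.0397; edgeR -0.28 ± 0.12, adjusted p = 0.690). CIDEC, a protein of lipid droplets, had 17.0 ± 7.47 against 8.38 ± 2.58 cpm in diencephalon at 120 min (SD, n = 5 each). cyp2n13, a cytochrome P450, differed by 1.18 and 0.92, and cyb5r2, a cytochrome b5 reductase, by 0.41 and 0.68 in diencephalon and telencephalon on the log2(cpm + 1) scale. spc24, a kinetochore protein, differed by 0.70 and 0.69, and anp32e (2 of 2), a chaperone of the histone H2A.Z, by 0.19 and 0.28. zgc:153932, named by a clone only, differed by 1.02 and 0.70.

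The highest-ranked genes without a name included ENSGACG00000010333 (rank 5), which differed by 0.34 in both regions, and ENSGACG00000019377 (rank 8), which differed by 0.71 and 0.64. ENSGACG00000005970 (rank 6) differed by 2.32 and 2.09. Its diencephalon held 1.78, 8.56, 10.6, 12.5 and 13.1 cpm in challenged and 0.252, 0.479, 0.734, 1.08 and 1.84 cpm in control fish at 120 min. Only the lowest challenged fish lay within the control range, and in fish of 30 and 60 min the gene ran from 0.114 to 19.0 cpm.

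The groups of 120 min were also set against the earlier fish. With the average over the 4 groups of 30 and 60 min as a reference, the median member in diencephalon was 0.13 higher in the challenged fish of 120 min and 0.14 lower in their controls on the log2(cpm + 1) scale. In telencephalon the medians were 0.14 higher and 0.15 lower. Over all 16444 genes the same medians lay between -0.01 and 0.01. Challenged fish of 120 min had the highest mean of the 6 groups for 66 members in diencephalon, against 16.9% of all genes, and for 62 in telencephalon, against 14.3%. Controls of 120 min had the lowest mean for 69 members (15.1% of all genes) and 61 members (10.2%). Both held for 42 members in diencephalon (3.18% of all genes) and 33 in telencephalon (1.82%). The choice by the difference at 120 min pushes both groups apart from the reference and raises all these counts and medians, so they carry no test and nothing is read from them.

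**Figure D2:**
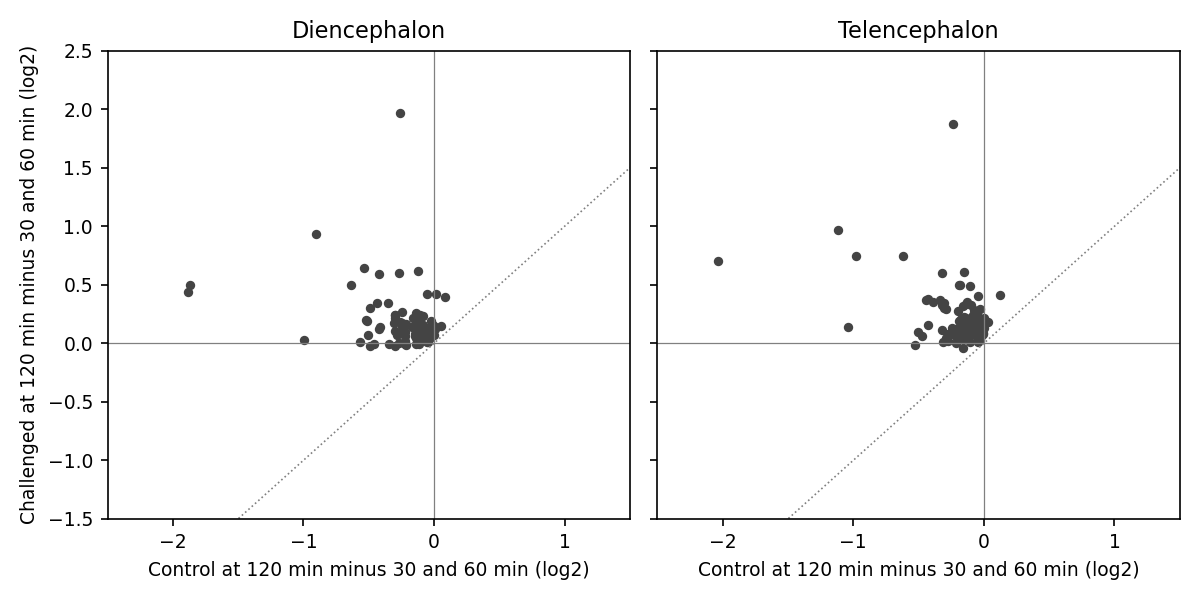
Each point is 1 of the 100 genes, with the mean log2(cpm + 1) of control fish (horizontal axis) and challenged fish (vertical axis) at 120 min, both less the mean of the 4 groups of 30 and 60 min, in each region. Grey lines mark 0 and the dotted line equal values; most points lie up and to the left of 0, and the medians are 0.13 and -0.14 in diencephalon and 0.14 and -0.15 in telencephalon.

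For a summary by fish, the deviation of each member from its mean over the region was taken and the median over the 100 genes was formed. At 120 min the challenged fish gave 0.06 to 0.17 in diencephalon and 0.08 to 0.19 in telencephalon, and the controls -0.16 to -0.08 and -0.21 to -0.10. At 30 min the challenged fish gave -0.07 to 0.07 in diencephalon and -0.10 to 0.10 in telencephalon, and the controls -0.04 to 0.03 and -0.10 to 0.003. At 60 min the controls gave -0.03 to 0.08 in diencephalon and -0.03 to 0.25 in telencephalon, with the highest value in fish 35, which also had photoreceptor genes at 1046 cpm in telencephalon against a median of 8.54. The challenged fish of 60 min gave -0.02 to 0.01 in diencephalon and -0.05 to -0.01 in telencephalon.

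**Figure D3:**
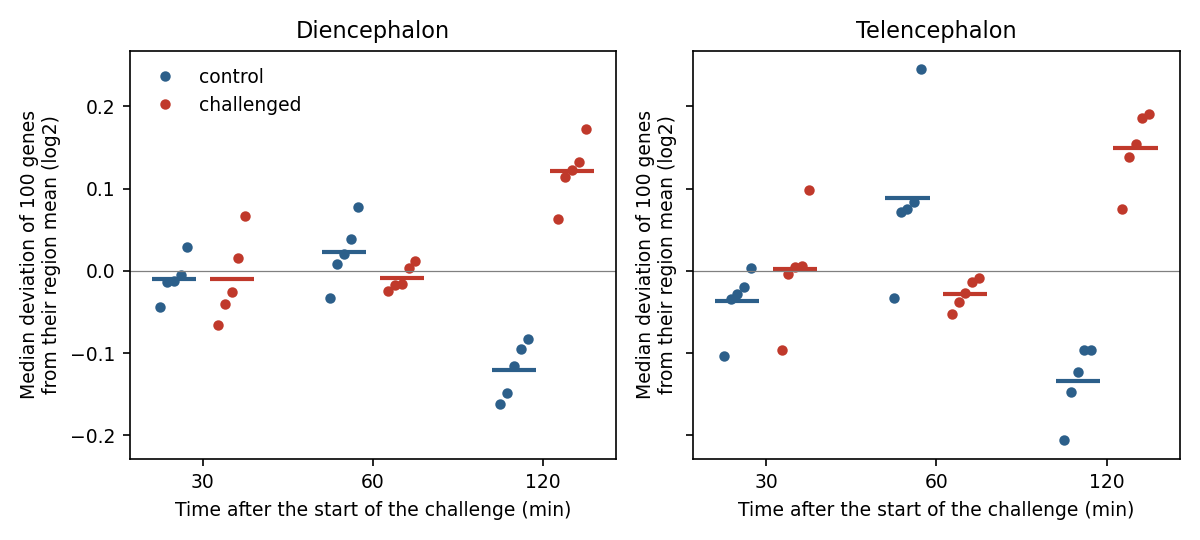
Median deviation (log2) of the 100 genes from their mean over the 30 libraries of a region, by fish, time in min and group, with bars for the group means (n = 5). Fish of 120 min separate because the genes were chosen by them. Fish of 30 and 60 min, not used in the ranking by t, lie on both sides of 0, from -0.10 to 0.25 in telencephalon, where some reach the values of 120 min fish.

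No member passed the test at 30 or 60 min. All 100 genes were tested at both times in both regions with edgeR's quasi-likelihood test, and none reached an adjusted p of 0.1 (Benjamini-Hochberg over all genes and the 6 comparisons), as was so for every gene tested (0% of all genes in each of the 4 comparisons). Counts without adjustment were small. At 30 min, 4 members were higher in challenged diencephalon at p under 0.05 and 5 lower, where 1.44% and 1.84% of all genes were. In telencephalon at 30 min 4 were higher and 3 lower, where 2.02% and 2.12% of all genes were. At 60 min, 2 members were higher and 6 lower in diencephalon, against 3.85% and 6.61% of all genes, and 2 were higher and 11 lower in telencephalon, against 7.11% and 5.22%. DESeq2 also called no member at either time, and its calls over all genes are not given here.

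These small counts rested on few fish. The shares of all genes with each fish left out are not given, so a changed count may be shared by all genes. The 11 lower members in telencephalon at 60 min became 7 without challenged fish 7, challenged fish 28 or control fish 35 and 18 without control fish 3, and the 6 in diencephalon became 2 without challenged fish 7 and 11 without control fish 15. At 30 min the 5 lower in diencephalon became 2 without challenged fish 11, challenged fish 34 or control fish 5 and 3 without challenged fish 18 or 38, and the 4 higher became 2 without control fish 33. In telencephalon at 30 min the 4 higher became 7 without challenged fish 11, control fish 5 or control fish 30, and the 3 lower became 0 without challenged fish 18 and 1 without any of 9 other fish.

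The median member differed by -0.03 in diencephalon at 30 min and by 0.02 in telencephalon on the log2 scale of edgeR, where the median of all genes was -0.002 and -0.001. When each fish was left out in turn, the first ran from -0.0383 (without challenged fish 38) to -0.0024 (without challenged fish 23). The second ran from -0.0203 (without challenged fish 38) to 0.0292 (without control fish 5), and it was also below 0 without control fish 12 or control fish 33. At 60 min the medians were -0.07 and -0.08, with -0.02 and -0.02 for all genes, and the diencephalon median was -0.03 without control fish 8 and -0.04 without control fish 35. The telencephalon median was -0.05 without control fish 35. In telencephalon at 60 min, 24 of the 100 members had a higher mean log2(cpm + 1) in challenged fish, where 44% of all genes did, and in diencephalon 39 members did, where 51.5% of all genes did. At 30 min the number was 49 in diencephalon and 59 in telencephalon, against 55.9% and 53.5%. Challenged and control fish did not overlap for any member at 30 min, in either direction (0.511% of all genes were higher and 0.225% lower in diencephalon, 0.541% and 0.225% in telencephalon). At 60 min, ENSGACG00000019786 was higher in all challenged fish in diencephalon (1.22% of all genes were), and c1qtnf3 and chmp7, the last a part of the ESCRT-III complex, were lower in all challenged fish in telencephalon (0.632% of all genes were). No member was lower in all challenged fish in diencephalon (0.28% of all genes were) or higher in telencephalon (0.669%) at that time. Nor did any member separate in both regions, where at 30 min 0.0486% of all genes were higher and 0.0122% lower, and at 60 min 0.0365% and 0.0182%.

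**Figure D4:**
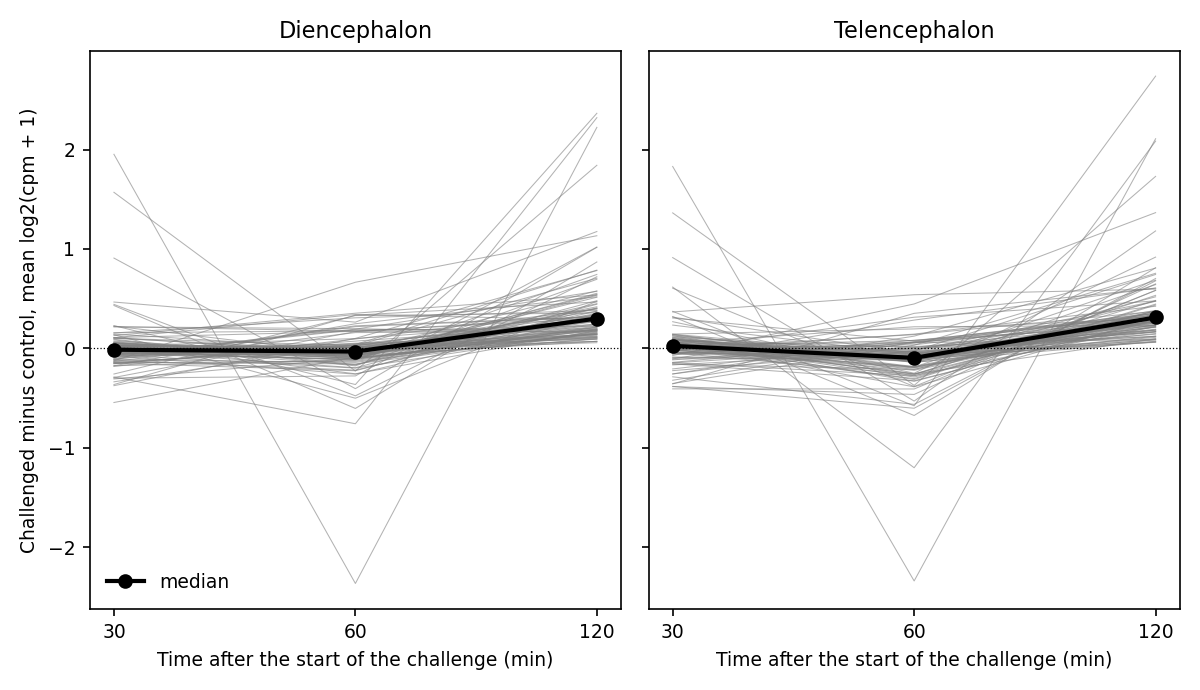
Difference of mean log2(cpm + 1), challenged minus control, for each of the 100 genes (grey lines) at 30, 60 and 120 min in each region, with the median (black points: -0.01, -0.03 and 0.30 in diencephalon; 0.03, -0.10 and 0.31 in telencephalon). The higher values at 120 min follow from the choice; lines at 30 and 60 min spread around 0.

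Whether the effects at 30 and 60 min differed from each other was tested in the same fits. No member passed (0% of all genes did in each region), and 12 members (7 above and 5 below 0) had p under 0.05 in diencephalon, against 5.04% of all genes. In telencephalon 11 did (3 above and 8 below 0), against 10% of all genes. ENSGACG00000008250, ENSGACG00000009762, eef1db (1 of 2) and CIDEC were below 0 in both regions and scg2a, otud7b and ENSGACG00000016574 above 0 in both. Both regions come from the same fish, and these genes were singled out after their values were seen. For scg2a the effect at 60 minus that at 30 min was 0.46 ± 0.17 in diencephalon and 0.46 ± 0.21 in telencephalon on the log2 scale (adjusted p = 0.980 and 0.470).

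A few members spanned a wide range of levels among fish. In 7 of the 100 genes the 20 fish of 30 and 60 min spanned more than 2 on the log2(cpm + 1) scale in both regions, which 4.18% of all genes did. ENSGACG00000008250 (chromosome X, 12683622 to 12684212) spanned 5.14 and 5.11. In diencephalon it held 0.0354, 0.470, 3.43, 16.8 and 34.3 cpm in challenged and 0, 0, 0.0379, 0.0467 and 3.5 cpm in control fish at 30 min. At 60 min it held 0.0694, 0.0810, 0.210, 0.566 and 28.6 cpm in challenged and 6.60, 6.84, 10.0, 16.8 and 19.2 cpm in control fish. All challenged fish but the highest lay below every control, and the highest lay above them all. At 120 min it held 7.62, 9.42, 12.4, 17.4 and 29.9 cpm in challenged and 0, 0.359, 3.09, 3.37 and 11.6 cpm in control fish. The differences of mean log2(cpm + 1) in diencephalon were thus 1.95, -2.36 and 2.22 in order of time, and in telencephalon 1.83, -2.34 and 2.11. The gene was under 1 cpm in 12 fish in diencephalon and 11 in telencephalon, 11 of them in both: 2 challenged and 4 control fish of 30 min, 3 challenged fish of 60 min and 2 controls of 120 min. Its edgeR difference at 30 min, 3.89 ± 1.54 in diencephalon and 3.88 ± 1.56 in telencephalon, did not pass (adjusted p = 0.657 and 0.664). At 60 min the edgeR difference was -1.02 ± 1.33 and -0.95 ± 1.36 and did not pass either (adjusted p = 0.953 and 0.962).

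Wide ranges were shared by both regions in other members as well. ENSGACG00000012348 was under 10 cpm in 9 fish, the same 9 in both regions: 3 controls of 30 min, 2 challenged and 1 control fish of 60 min and 3 controls of 120 min. At 120 min its diencephalon held 17.7, 19.8, 26.9, 34.2 and 34.2 cpm in challenged and 1.89, 2.35, 2.67, 15.7 and 37.4 cpm in control fish, so that 1 control stood above the challenged range, 1 just below it and 3 far below. ENSGACG00000016345 was under 10 cpm in 9 fish, again the same in both regions, of which 3 were controls and none challenged fish of 120 min. ENSGACG00000008250, ENSGACG00000012348 and ENSGACG00000016345 were singled out after their values were seen.

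**Figure D5:**
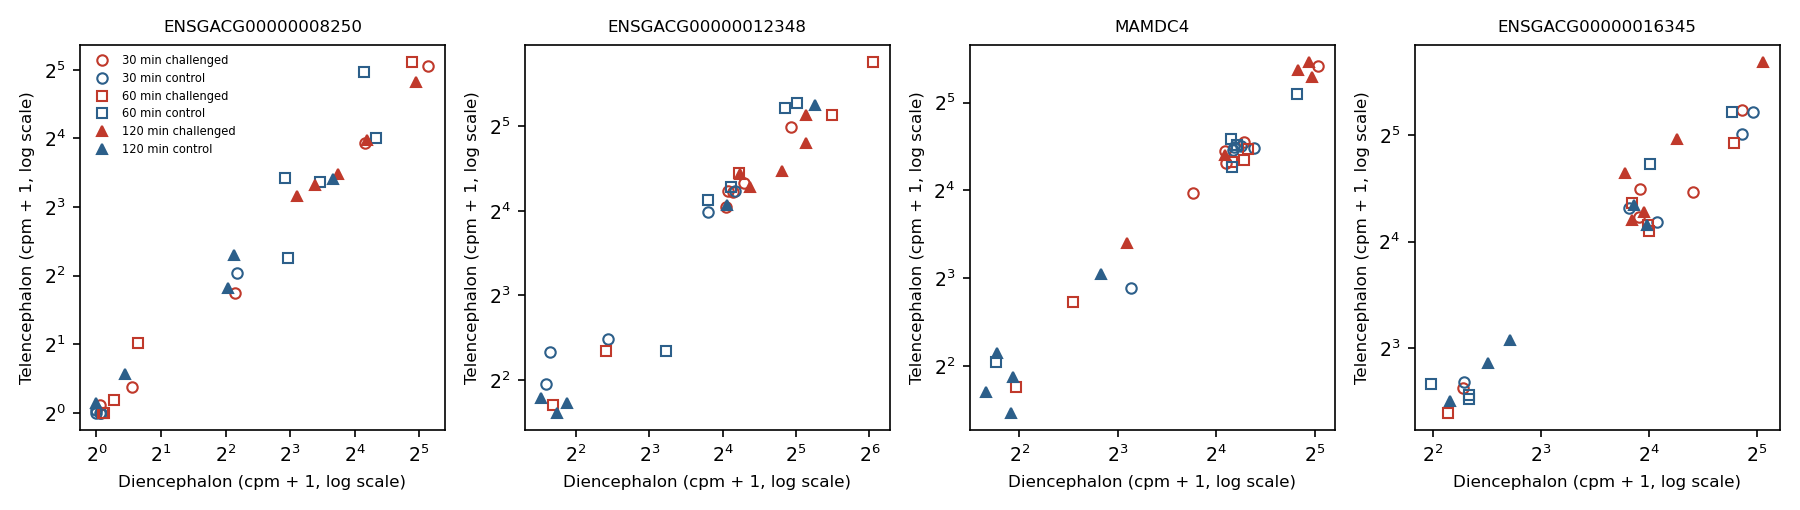
Level of 4 members in telencephalon against diencephalon of the same fish (cpm + 1, both axes on a log scale), 30 fish in each panel, with filled triangles for 120 min and open symbols for 30 and 60 min. Fish low in a region were low in the other in each panel (r of 0.965 to 0.989 over fish of 30 and 60 min); the 5 controls of 120 min are all at the low end for MAMDC4.

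Levels in the 2 regions of a fish were alike for most of the 100 genes. Over the 20 fish of 30 and 60 min, with the group means removed, the correlation between the deviations in diencephalon and telencephalon had a median of r = 0.73 over the members (quartiles 0.61 and 0.83) and 0.54 over all genes. It was above 0.8 for 33 members and 15.1% of all genes, and it was 0.989 for MAMDC4, 0.979 for ENSGACG00000008250 and 0.965 for ENSGACG00000012348. Several members were low, such as CIDEC at 0.006, ENSGACG00000017067 at 0.018 and ENSGACG00000017757 at -0.119. Regions of a fish share the animal, its dissection and its genotype, and the genes were chosen for agreement between regions in other fish, so these values carry no test. Within a region, pairs of members did not go together much, with a mean r of 0.03 in diencephalon and 0.07 in telencephalon against 0.007 and 0.005 over all pairs of genes. Fish of a group also varied more in the members: the median SD of log2(cpm + 1) within groups was 0.20 in diencephalon and 0.22 in telencephalon, and 0.15 and 0.18 over all genes.

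In level the members were ordinary. Their median was 25.6 cpm in diencephalon and 27.2 cpm in telencephalon, beside 25.8 and 24.6 cpm over all genes, and they ranged from 1.18 to 291 cpm and from 1.11 to 223 cpm. In the 40 libraries of 30 and 60 min, edgeR called 28 members higher in telencephalon and 26 higher in diencephalon (adjusted p of at most 0.1), where 34.7% and 32.9% of all genes were. REM2 (1 of 2), a small GTPase that acts on calcium channels, was higher in telencephalon by 1.26 ± 0.05, and ENSGACG00000013782 by 2.00 ± 0.13 on the log2 scale (adjusted p = 8.99e-22 and 5.2e-16). cyb5r2 was lower there, at -1.33 ± 0.17, and cyp2n13 at -1.11 ± 0.28 (adjusted p = 9.72e-09 and 0.000813). Both regions come from the same fish, and with fish as a block 40 members were higher in telencephalon and 34 in diencephalon, where 40.2% and 38.5% of all genes were, so that 20 further members were called. MAMDC4 was among these and gave 0.28 ± 0.27 without the block (edgeR adjusted p = 0.389) and 0.26 ± 0.04 with it (adjusted p = 9.3e-06). ppan gave 0.02 ± 0.05 and 0.02 ± 0.02 (adjusted p = 0.752 and 0.509).

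A position in the Ensembl release 75 assembly was at hand for 51 members and 1510 of the 16444 genes, since the tables that gave it list a selection of genes made from these libraries. Of the 51, 11 lay on chromosome XI (21.6%, against 6.23% of the 1510) and 6 on chromosome XIV (11.8% against 3.58%). On chromosome XI they included ppp1caa (13273176 to 13279635), ppan (13416467 to 13420111) and mkl2b (13726297 to 13732972), and btr30 (15851208 to 15857232) beside the socs7 pair. Within 100000 bases of each other also lay shbg, the carrier of sex steroids, and ENSGACG00000019377 on chromosome VII (r = 0.618 in diencephalon and 0.701 in telencephalon over the 20 fish), and c1qtnf3 and ENSGACG00000016345 on chromosome XIV (r = 0.324 and 0.0622). Because positions cover only genes called in the fish that also chose the members, the shares are a description and nothing is read from them.

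Of the 17 gene lists kept for context, only those of ribosome assembly and translation, of inflammation and of antigen presentation and interferon held members (4, 2 and 1). None of 25 immediate early genes, 11 clock genes, 20 lysosome and cathepsin genes or 8 neuron and 10 oligodendrocyte genes was a member. Marker genes of photoreceptors, pituitary, skeletal muscle, epithelium, pigment cells and inner ear were absent from the 100 genes as well, as were those of both regions. The 100 members were drawn from 16444 genes, so lists this short would mostly hold none. Lists were also matched by gene name, so the 62 members without a name could not be in any of them. Nothing is read from these absences, or from that of the microglia and macrophage markers. None of the 8 pituitary genes could be chosen, since none reached the mean of 1 cpm in each region, and 3 of 6 pigment cell, 5 of 8 inner ear and 8 of 11 muscle genes reached it. Oligodendrocyte markers, which sum to 718 to 914 cpm in challenged and 871 to 1024 cpm in control diencephalon at 120 min, were at a median of 751 cpm in challenged and 1010 cpm in control fish. The groups overlapped in diencephalon and also in telencephalon. In telencephalon the markers were at 214 to 363 cpm in challenged and 263 to 330 cpm in control fish of 120 min. The telencephalon medians were 271 and 291 cpm. The part of these markers in the members' differences was not tested.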

How the data were processed

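The authors trimmed reads, aligned them with TopHat2 2.0.8 to the repeat-masked Ensembl release 75 stickleback genome and deposited raw counts per gene made with HTSeq 0.6.1, with reads in several genes left out. Base calling used CASAVA 1.8.2 per the labels. The strand setting of the counting is not given in the sources used here. A second deposited table of cpm values was not used. Library totals were 17705327 to 55299804 counts, which limits the precision of genes near 1 cpm. Groups came from the labels, 5 fish in each of 12. Replicates are separate fish.

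Counts were divided by column sums to give cpm, with the mean of 1 cpm required over the 30 libraries of each region and a pseudocount of 1 on the log2 scale. The members and the 17 gene lists were chosen with earlier results of these data known. Treatment effects at 30 and 60 min were tested per region with edgeR 4.0.16 (R 4.3.3, TMM normalization, quasi-likelihood test, genes reaching 1 cpm in 2 or more libraries, all times in the fit), and p was adjusted by Benjamini-Hochberg over 6 comparisons, with a threshold of 0.1. Telencephalon and diencephalon were compared in the 40 libraries of 30 and 60 min. The D and T libraries of a fish number come from the same animal, and deviations of the same fish correlated with a median r of 0.54 over all genes. Exact permutation tests went through all 252 splits with Python 3.11.15 and NumPy 2.4.6, and the Benjamini-Hochberg adjustment used SciPy 1.17.1. On simulated diencephalon counts for 17448 genes with 200 changed 2-fold at 60 min, the test recovered 167. It also called 5 unchanged genes at 60 min and made 7 calls at 30 and 120 min, where no gene was changed. The median difference of the members in diencephalon at 120 min was 0.30 on the log2 scale, less than 2-fold. The simulation therefore does not give the power for differences of that size.

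Named in the text were the 20 highest-ranked members with a gene name, members in a list, the 3 highest-ranked members without a name, and the last member with the first gene outside. A member is not reported here. Other genes were named after their values were seen. Alternatives were DESeq2 1.42.0, RLE normalization, a likelihood ratio test, other filters, pseudocounts and samples, a fish block and leaving out each fish. Gene names and positions came from the study's supplementary tables, of which only names and positions were used. The reference gene table was of another assembly, and 0 identifiers matched. No sequence is shown.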

Additional observations from a re-analysis of the deposited data

Results flagged for a closer look

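In 84 groups of 5 fish, the gap of the highest or lowest fish to the next was compared with the range of the group on the log2(cpm + 1) scale. These groups covered only some of the members, so other members may hold such fish too. For example, qars was not among them, and its control diencephalon at 60 min held 72.5 cpm in the highest fish and 33.8 to 37.7 cpm in the others. A fish stood far from the other 4 in 8 groups, with 5 fish involved. Chance gives about 1 in 20 groups where groups are independent, but here both regions of a fish were counted. Whether 8 is more than chance gives was not tested. MAMDC4 was low in control fish 12 of 30 min (7.80 cpm in diencephalon and 6.40 cpm in telencephalon) and in control fish 27 of 60 min (2.38 and 3.1 cpm). It was high for its group in the diencephalon of control fish 2 of 120 min, at 6.11 cpm. In the diencephalon of 60 min controls, coq4 was low in fish 15 (14.0 cpm), thyn1 was low in fish 27 (16.7 cpm) and tap1 was high in fish 8 (86.7 cpm), the fish whose microglia and macrophage markers summed to 4366 cpm.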

How the results depend on the processing

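No alternative called a member at 30 or 60 min, and how many of all genes each called is not given here. Counts at an unadjusted p under 0.05 moved by more than 1.5 times in a few. For these counts the shares of all genes under the alternatives are not given, so nothing about the members is read from the moves. With 1 cpm required in 25 libraries, 1 member was higher in diencephalon and 2 in telencephalon at 30 min. That filter left some members untested. ENSGACG00000008250, among the higher members at 30 min in the main fit, was 1 of them, being under 1 cpm in 12 fish in diencephalon and 11 in telencephalon. With only the 10 libraries of a time in the fit, 3 were lower in diencephalon at 60 min, and in telencephalon 1 at 30 min and 5 at 60 min. With all genes of at least 1 count, and with the likelihood ratio test, 1 was higher in diencephalon at 60 min and 1 lower in telencephalon at 30 min. When each fish of 30 and 60 min was left out in turn, the higher and lower counts ranged from 2 to 5 and 2 to 5 in diencephalon at 30 min, from 1 to 5 and 2 to 11 at 60 min, from 3 to 7 and 0 to 4 in telencephalon at 30 min and from 1 to 3 and 7 to 18 at 60 min. The median ranged from -0.038 to -0.0024 in diencephalon at 30 min and from -0.076 to -0.033 at 60 min, and in telencephalon from -0.020 to 0.029, with a change of sign, and from -0.114 to -0.049. For the effect at 60 minus that at 30 min, 4 to 7 members were above 0 at p under 0.05 in diencephalon and 4 to 7 below. In telencephalon 1 to 3 were above and 5 to 11 below at p under 0.05. The causes were not tested. Without each fish of 120 min, 46 to 70 of the 100 genes were chosen again, and 85 with TMM library sizes. With fish as a replicate block, pairing the regions of an animal, 40 members were higher in telencephalon and 34 in diencephalon, against 28 and 26 without the block. Of all genes, 40.2% and 38.5% were with the block and 34.7% and 32.9% without it. The block added 20 calls and removed 0. Pairs of challenged and control fish could not be used because the labels do not give them. Depth limits the members near 1 cpm.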
